A study of Mus musculus with 6 samples.

Results

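Eosinophil, basophil and mast cell genes were followed in sorted mouse haematopoietic stem cells that did or did not express NPMc+, a mutant nucleophosmin located in the cytoplasm. The 10 genes were Prg2, Prg3, Epx, Mcpt8, Cpa3, Ms4a2, Fcer1a, Cma1, Tpsb2 and Hdc, taken by name from the probe sets annotated with a single gene symbol. Each had 1 such probe set, so the list made up 10 of 22180 genes on the array. A mean over the 6 arrays at or above the 25th percentile of genes (lowest mean 3.01 log2 units) was required for testing, and 9 of the 10 passed among 16635 genes. Cma1 lay below it and is described by its values alone.

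The samples were long-term haematopoietic stem cells (LT-HSC) sorted from the bone marrow of C57/BL6 mice 4 months after a bone marrow transplant. Each array held RNA of a pool of animals, 3 pools being control and 3 expressing NPMc+. Amplification and biotin labelling started from about 5 ng of RNA. The sources used here do not give how NPMc+ was expressed, the sort gates, the host or the animals' age. Of 10 LT-HSC markers with a probe set, all passed the filter, among them Procr, with group means of 5.33 and 5.41 log2 units, and Kit, with 8.94 and 9.37. The dimmest of the 10 were Fgd5, with 4.05 and 3.85, and Tek, with 4.05 and 4.07. Transcripts of mature cells were present as well: Mmp8, a neutrophil gene, had group means of 10.82 in control and 9.02 in NPMc+.

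The deposited log2 values tie same-numbered arrays to each other. For 100% of 41345 probe sets, the midpoints of pairs 1, 2 and 3 coincided within 0.001 log2 units. Each array value is therefore that common mean plus or minus a term set by the pair difference. The spread within a group mirrors the spread of the 3 differences, and groups do not overlap exactly when all 3 differences share a sign. Differences (NPMc+ minus control, log2 units) were tested with limma with the replicate number as a block, and errors are the SE of that fit.

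Eosinophils, basophils and mast cells are granulated cells of allergy and of defence against parasites, and they develop in or from the bone marrow. Eosinophils pack cationic proteins and a peroxidase into their granules. Basophils and mast cells store histamine and proteases and carry the high-affinity receptor for IgE, whose cross-linking releases the granules. Transcription factors of the GATA family, with C/EBP factors, take part in directing progenitors to these fates. Some of these genes, Cpa3 and Hdc among them, are also known to be transcribed in immature blood progenitors, so their signal is not restricted to mature cells. In a bulk sample, fewer cells of a type and less RNA per cell cannot be told apart.

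Promoter windows are shown for Prg3, Epx and Cpa3, the members with the widest spread between pairs, and for Ms4a2, the member with the most GATA matches. They were chosen after the values were seen. Each is the 250 bases before the annotated start in RefSeq, build GRCm38.p6, written 5′ to 3′ on the gene's strand. Capitals mark AGATAA and AGATAG as well as TGATAA and TGATAG, the letters GATA factors are known to bind, read on either strand. They also mark TATAA on the gene's strand where it begins 20 to 40 bases before the start. No marked match overlaps another.
Prg3, eosinophil granule protein, chr2:84987965-84988214, plus strand: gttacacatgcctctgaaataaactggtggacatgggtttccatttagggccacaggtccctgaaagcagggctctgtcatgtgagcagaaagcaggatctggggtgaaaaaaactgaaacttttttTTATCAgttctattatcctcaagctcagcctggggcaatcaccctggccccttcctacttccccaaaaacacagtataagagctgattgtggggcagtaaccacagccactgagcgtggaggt
Epx, eosinophil peroxidase, chr11:87875537-87875786, minus strand: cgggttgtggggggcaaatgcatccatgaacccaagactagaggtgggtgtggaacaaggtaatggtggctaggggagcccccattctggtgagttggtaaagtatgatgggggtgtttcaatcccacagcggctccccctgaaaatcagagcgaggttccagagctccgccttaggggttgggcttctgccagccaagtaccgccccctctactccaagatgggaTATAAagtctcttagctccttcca
Cpa3, mast cell carboxypeptidase, chr3:20242182-20242431, minus strand: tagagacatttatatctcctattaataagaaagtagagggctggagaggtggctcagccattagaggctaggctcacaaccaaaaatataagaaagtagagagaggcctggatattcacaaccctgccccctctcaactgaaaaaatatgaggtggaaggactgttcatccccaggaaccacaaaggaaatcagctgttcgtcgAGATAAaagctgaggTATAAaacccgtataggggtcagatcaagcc
Ms4a2, IgE receptor beta chain, chr19:11623720-11623969, minus strand: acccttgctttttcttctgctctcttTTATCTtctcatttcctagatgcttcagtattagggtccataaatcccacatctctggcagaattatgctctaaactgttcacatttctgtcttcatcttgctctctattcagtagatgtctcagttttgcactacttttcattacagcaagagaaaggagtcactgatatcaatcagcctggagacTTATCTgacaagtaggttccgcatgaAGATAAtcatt

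Windows were found for 8 of the 10 members, and 6 of the 8 held at least 1 of the GATA letters, against 26.5% of all 32851 windows. In Cpa3 the match AGATAA lay 46 to 41 bases before the start and TATAA 31 to 27 bases before it. Ms4a2 held 3 matches, a number reached by 1.35% of all windows. Prg3 held 1 match, on the opposite strand, and Fcer1a, Cma1 and Hdc held 1 each. The letters were not found in the windows of Epx and Mcpt8. TATAA at that distance occurred in Epx and Cpa3, 2 of 8, against 3.52% of all windows.

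No member passed the test. At an adjusted p under 0.05 the count in limma was 0 of 9 members, where the share of all genes tested was 0%. At an unadjusted p under 0.05 it was again 0 of 9, against 8.97% of all genes tested. The median difference of the 9 members was 0.18 log2 units, against 0.03 over all genes tested. Most members went different ways in different pairs, as described next by role.

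Of the eosinophil granule genes, Epx encodes eosinophil peroxidase, which makes hypohalous acids from hydrogen peroxide. Its levels were 6.04, 5.01 and 6.64 log2 units in control pools 1, 2 and 3, and 7.09, 8.12 and 6.48 in NPMc+ pools 1, 2 and 3. NPMc+ pools 1 and 2 were higher than every control pool, while pool 3 lay just under its own control, so the groups overlapped. The differences were 1.05, 3.11 and -0.16. Their mean was 1.33 ± 0.56 (SE), or 2.52-fold, with a 95% interval of -0.0018 to 2.66. In limma the unadjusted p was 0.0502 and the adjusted p 0.558. It was the member nearest to the threshold and crossed it under some other settings of the same test but not under others. In limma with an intensity trend in the prior, p was 0.0402 (adjusted p 0.567), where 8.46% of genes tested passed. Among the genes above the 50th percentile it was 0.0455 (adjusted p 0.481), where 10.1% passed. The limma p stayed above 0.05 with no block (0.0516), quantile normalization (0.0663), no filter (0.054) and the mean over probe sets (0.0505).

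Prg3 and Prg2 are neighbouring genes for major basic proteins of the eosinophil granule, Prg2 for the main form and Prg3 for a homologue. Prg3 levels were 5.84, 5.34 and 7.01 in control and 7.10, 7.61 and 5.93 in NPMc+. Control pool 3 was close to NPMc+ pool 1, and NPMc+ pool 3 was close to control pool 1. The differences of 1.27, 2.27 and -1.08 gave a mean of 0.82 ± 0.58 (SE; limma adjusted p 0.741), with a 95% interval of -0.56 to 2.20. Prg2 was at 10.01, 10.04 and 10.73 in control and 10.68, 10.66 and 9.97 in NPMc+. Pool 3 was the highest of the control pools and the lowest of the NPMc+ pools. The differences of 0.67, 0.62 and -0.75 had the signs of those of Prg3. The mean was 0.18 ± 0.31 (SE; limma adjusted p 0.909; 95% interval -0.57 to 0.92). Probe sets of such related genes can share sequence, so their values may not be fully separate.

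Of the protease genes, Cpa3 encodes the carboxypeptidase A stored with heparin in mast cell granules, which is also made by basophils. Its levels were 7.60, 7.88 and 9.02 in control and 9.62, 9.35 and 8.20 in NPMc+. NPMc+ pools 1 and 2 were above all controls, but pool 3 was lower than control pool 3. The differences were 2.02, 1.47 and -0.82, that is 4.06-fold and 2.77-fold higher in pairs 1 and 2 and 1.77-fold lower in pair 3. The mean was 0.89 ± 0.51 (SE; limma adjusted p 0.674; 95% interval -0.34 to 2.12).

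Mcpt8 encodes a serine protease used as a marker of mouse basophils. It stood at 8.09, 8.59 and 9.19 in control and 8.74, 8.24 and 7.64 in NPMc+. Control pool 3 was the highest of the 6 arrays and NPMc+ pool 3 the lowest. The differences were 0.65, -0.35 and -1.55, with a mean of -0.42 ± 0.39 (SE; limma adjusted p 0.822; 95% interval -1.35 to 0.52). Its sign was that of Cpa3 in pairs 1 and 3 and the opposite in pair 2.

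Cma1 and Tpsb2, a chymase and a tryptase of connective tissue mast cells, were dim in every pool. Cma1 ranged from 2.46 to 2.68 over the 6 arrays and was not tested. Its mean difference was -0.079, with an SD of 0.13 over the 3 pairs. Tpsb2 ranged from 2.92 to 3.11, just above the lowest mean tested, and differed by -0.0034 ± 0.18 (SE; limma adjusted p 0.998). For both genes the spread between pools was within a fraction of a log2 unit.

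**Figure D1:**
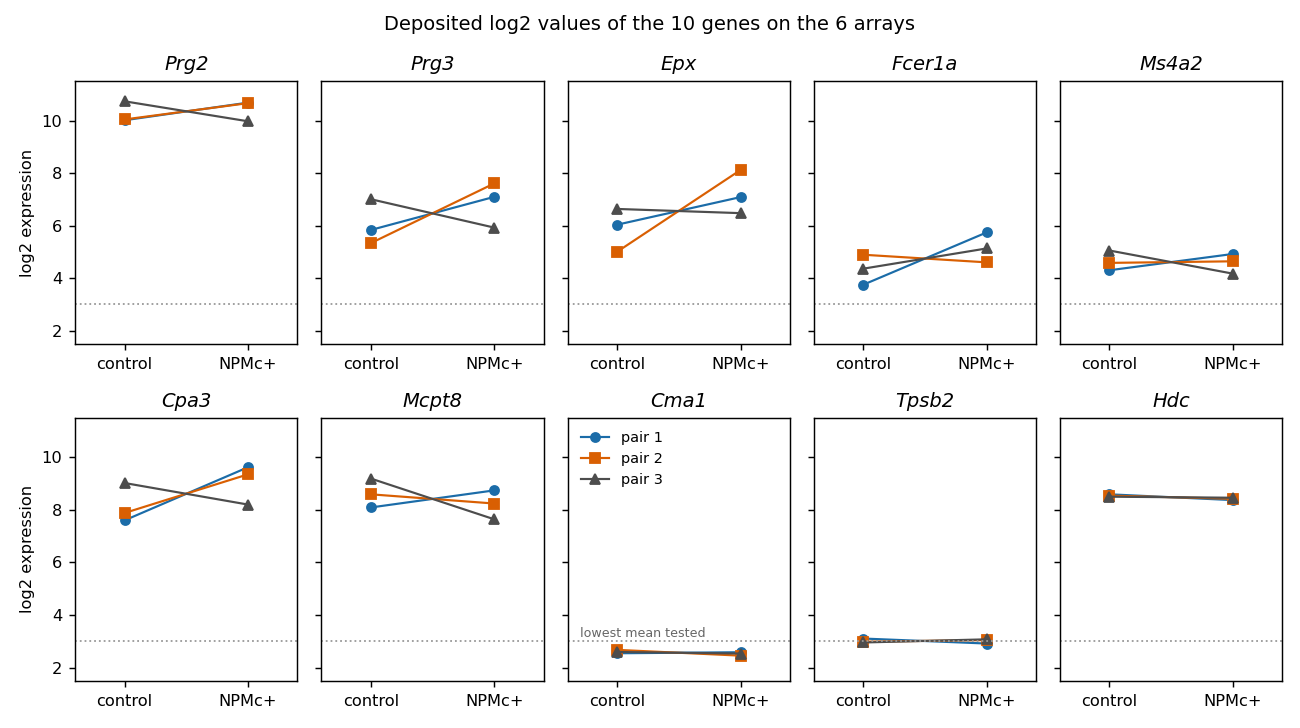
Deposited log2 expression of the 10 genes (y axis) in control and NPMc+ pools (x axis), with lines joining same-numbered pools and a dotted line at the lowest mean tested, 3.01. For Prg2, Prg3, Epx and Cpa3 the lines of pairs 1 and 2 go up and that of pair 3 goes down, while Cma1, Tpsb2 and Hdc are nearly flat.

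The IgE receptor is built of an alpha chain (Fcer1a) that binds IgE, a beta chain (Ms4a2) that amplifies the signal, and gamma chains (Fcer1g) shared with other Fc receptors. Fcer1a levels were 3.76, 4.90 and 4.37 in control and 5.75, 4.61 and 5.14 in NPMc+. NPMc+ pools 1 and 3 were above all controls, and pool 2 fell between control pools 2 and 3. The differences were 1.99, -0.29 and 0.77, with a mean of 0.82 ± 0.40 (SE; limma adjusted p 0.621; 95% interval -0.15 to 1.79). Fcer1a was thereby the 1 member with a wide spread whose low value came from pair 2 and not from pair 3.

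Ms4a2 was at 4.31, 4.59 and 5.06 in control and 4.93, 4.65 and 4.18 in NPMc+, so the groups overlapped. The differences of 0.62, 0.064 and -0.88 averaged -0.067 ± 0.30 (SE; limma adjusted p 0.972; 95% interval -0.78 to 0.65). The signs over the pairs were unlike for the 3 chains: Fcer1g differed by -0.15, -0.35 and -0.29, with a mean of -0.27 ± 0.18 (SE; limma adjusted p 0.725).

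Hdc encodes histidine decarboxylase, the enzyme that makes histamine. It was at 8.59, 8.54 and 8.50 in control and 8.37, 8.42 and 8.46 in NPMc+. Every control pool was above every NPMc+ pool, though by small steps. The differences were -0.23, -0.13 and -0.048, with a mean of -0.13 ± 0.18 (SE; limma adjusted p 0.877; 95% interval -0.55 to 0.29). Hdc was the 1 of 9 tested members with the same sign in 3 of 3 pairs, against 30.2% of all genes tested. In the lower direction this was 1 of 9 against 12.8%, and in the higher direction 0 of 9 against 17.4%. A share of this kind is not above the background.

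**Figure D2:**
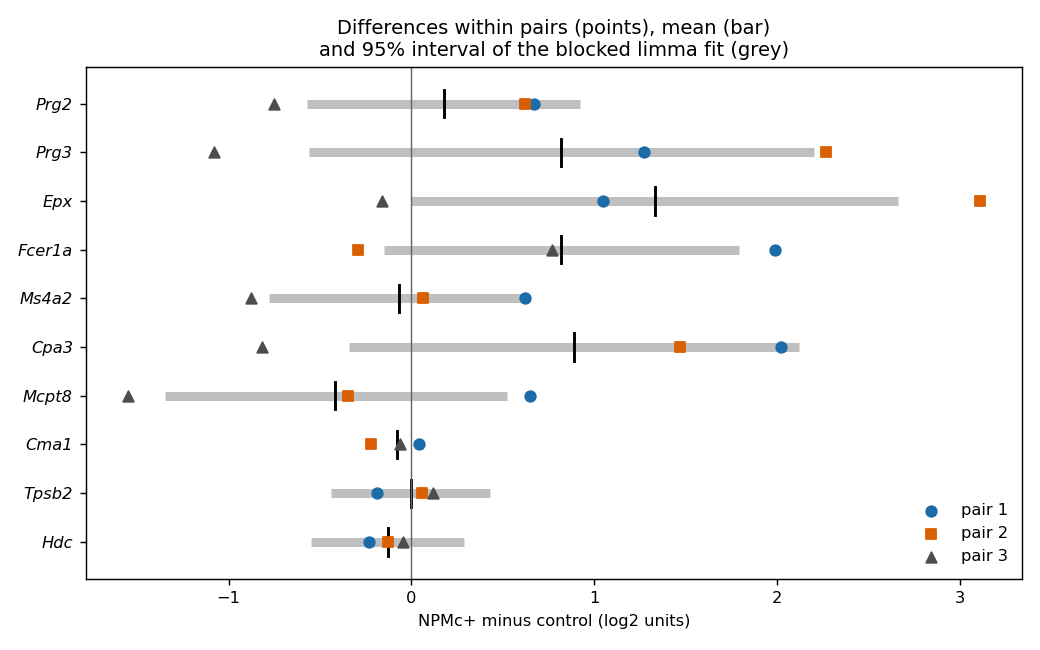
Difference between NPMc+ and control (x axis, log2 units) for each gene (y axis). Points are the 3 pairs, black bars their mean, and grey bars the 95% interval of the blocked limma fit; Cma1 was not tested and has none. The interval of Epx touches 0 at its lower end. Pair 3 lies below 0 for 8 of the 10 genes, against 46.9% of all genes tested.

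The pairs disagreed in direction. Of the 10 members, 8 were higher in NPMc+ in pair 1, 6 in pair 2 and 2 in pair 3. Over all genes tested 50.4%, 54.5% and 53.0% were higher in pairs 1, 2 and 3, so the count in pair 2 was near this share. The median difference of the 9 tested members was 0.67 in pair 1, 0.064 in pair 2 and -0.75 in pair 3. Over all genes tested the medians were 0.0025, 0.049 and 0.03. Prg2, Prg3, Epx, Cpa3 and Ms4a2 were higher in pairs 1 and 2 and lower in pair 3. This pattern was defined after the values were seen and covered 5 of 9 members against 11.3% of all genes tested.

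The spread between pairs was wide for most members. The SD of the 3 differences was 1.72 for Prg3, 1.65 for Epx and 1.51 for Cpa3, where the median over all genes tested was 0.33. Only 0.355%, 0.421% and 0.541% of genes tested had a larger SD than these. It was 1.14 for Fcer1a, 1.10 for Mcpt8, 0.81 for Prg2 and 0.76 for Ms4a2. Tpsb2 and Hdc were at the other end, with SDs of 0.17 and 0.089. Hdc, with a mean of 8.48 over the 6 arrays, lay far above the filter, so a narrow spread was not limited to dim genes.

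Leaving out pair 3 brought 4 members past an unadjusted p of 0.05, where 7.56% of genes tested passed. They were Cpa3, at 1.75 log2 units (limma p 2.45e-04, adjusted p 0.0896), Prg3, at 1.77 (limma p 5.63e-04, adjusted p 0.144), Epx, at 2.08 (limma p 0.00209, adjusted p 0.252), and Prg2, at 0.64 (limma p 0.0332, adjusted p 0.610). Without pair 1 the 1 member past it was Mcpt8, at -0.95 (limma p 0.0404, adjusted p 0.596), where 8.23% of genes passed. Without pair 2 it was Fcer1a, at 1.38 (limma p 0.00663, adjusted p 0.523), where 6.94% passed. The other fits took several of these values down. Epx was 0.44 and Prg3 0.094 without pair 2 (limma p 0.232 and 0.867), and Cpa3 was 0.32 and Fcer1a 0.24 without pair 1 (limma p 0.575 and 0.504). Each of these fits rests on 2 pairs, and in none did a member reach an adjusted p under 0.05.

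Pair 3 also differed from the others in neutrophil markers, in primary granule genes and in Xist. Neutrophil markers had medians of -1.79 and -1.35 in pairs 1 and 2 and -0.036 in pair 3. In pairs 1 and 2, 11 of 11 were lower, against 23.8% of all genes tested. Averaged over the 11, their log2 level was 9.77 to 10.67 in control pools and 8.85 to 9.75 in NPMc+ pools, with none below the filter. Genes of the primary granule, which myeloid precursors make, had medians of 0.51, 0.33 and -0.094. Of these, 4 of 6 (Mpo, Elane, Prtn3 and Ctsg) were higher in pairs 1 and 2 and lower in pair 3, against 11.3% of all genes tested. The fall in pair 3 was hardly anything for Mpo and Elane. Markers of other cells kept the sign of their median in pair 3. In pairs 1, 2 and 3 it was -1.25, -1.21 and -1.86 for B cell markers and -1.04, -0.56 and -0.88 for erythroid markers. For megakaryocyte markers it was 0.91, 1.11 and 1.04, and for T and NK cell markers -0.37, -0.33 and -1.35. Xist, transcribed from the inactive X, differed by -5.44, -5.39 and 0.48. The mean of Uty, Kdm5d and Eif2s3y from the Y chromosome differed by 4.55, 0.86 and -0.37, so there pair 1 stood apart. The part of cell composition or of the sex of the animals in the members' values was not tested.

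**Figure D3:**
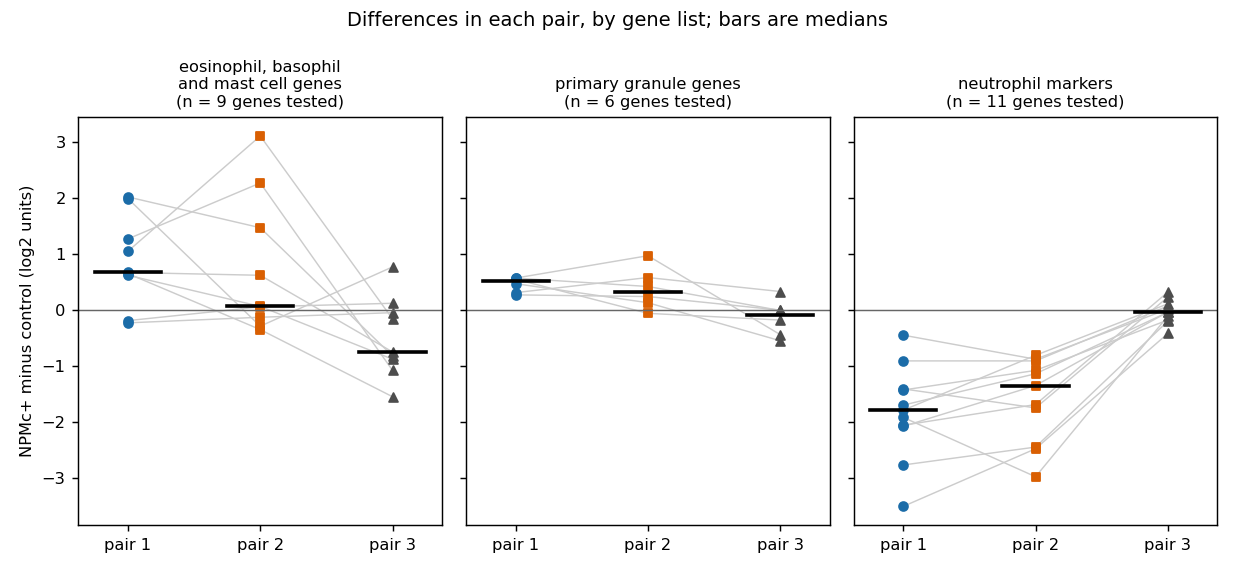
Difference between NPMc+ and control (y axis, log2 units) in pairs 1, 2 and 3 (x axis) for the members tested, primary granule genes and neutrophil markers. Points are genes, grey lines join a gene across pairs, and bars are medians. The members' median goes from 0.67 in pair 1 to -0.75 in pair 3, while that of neutrophil markers goes from -1.79 to -0.036.

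Further genes of these lineages were taken from lists given under the processing. At an unadjusted p under 0.05, 5.95% of all genes tested were higher in NPMc+ and 3.02% lower, and 0 of the listed genes reached an adjusted p under 0.05 in limma. Of other eosinophil genes, 0 of 9 tested were higher and 4 lower, with a median of -0.24. Ccl6, a chemokine made by several myeloid cells, was 3.35-fold lower (limma adjusted p 0.372), with levels of 8.31, 8.44 and 7.35 in control and 6.01, 5.88 and 6.98 in NPMc+. Its gap was smallest in pair 3, as for the neutrophil markers.

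Ccr3, the eotaxin receptor of eosinophils and basophils, was 2.20-fold lower (limma adjusted p 0.471), at 3.11, 4.11 and 3.71 in control and 3.03, 2.03 and 2.43 in NPMc+. Its mean over all arrays, 3.07, was just above the lowest mean tested, 3.01, and its NPMc+ mean of 2.5 was below that. Ccr3 thus passed the filter through its control values, and the size of its difference is uncertain. Adgre1, which encodes F4/80 of macrophages and eosinophils, was 1.76-fold lower (limma adjusted p 0.487). Siglecf, a lectin of eosinophils, was at 4.21, 4.21 and 4.83 in control and 5.26, 5.26 and 4.64 in NPMc+. Its differences were 1.05, 1.04 and -0.19, with a mean of 0.63 ± 0.29 (SE; limma adjusted p 0.594). It was the 1 of the 9 that was higher in pairs 1 and 2 and lower in pair 3, against 11.3% of all genes tested, whereas 5 of the 9 were lower in pairs 1 and 2, against 23.8%. Ccr3 and Siglecf, both surface genes of eosinophils, thus lay on opposite sides of 0 on average. The count of lower genes in this list was 3 without pair 1, 2 without pair 2 and 2 without pair 3, where 1 gene was higher, and Siglecf is mentioned outside the naming rule because of its pattern.

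Among other granule genes of mast cells and basophils, 6 of 14 were below the filter, and of the 8 tested 2 were higher and 1 lower. Slc18a2, the vesicular transporter that loads histamine and other amines into granules, was 2.13-fold higher (1.09 ± 0.26 log2 units, SE; limma adjusted p 0.371). Its levels were 7.57, 7.75 and 7.17 in control and 8.51, 8.34 and 8.91 in NPMc+, so it was higher in 3 of 3 pairs while Hdc was lower in 3 of 3. Gzmb, granzyme B, was 1.79-fold higher (limma adjusted p 0.340), at 4.62 to 4.72 in control and 5.46 to 5.56 in NPMc+. Prss34, a serine protease of basophils and mucosal mast cells, was 1.66-fold lower (limma adjusted p 0.471), at 6.92, 6.64 and 7.14 in control and 6.15, 6.42 and 5.92 in NPMc+. The groups did not overlap for any of these 3 genes. This held for 30.2% of all genes tested, and it is more likely for genes named because of a low p. Without pair 1 the counts were 3 higher and 0 lower, and without pair 3 they were 2 and 0.

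Mcpt8 and Cma1 belong to a cluster of serine protease genes that also holds cathepsin G and granzymes. Of 14 listed genes of this locus with a probe set, 11 were below the filter, among them Mcpt1, Mcpt2, Mcpt4 and Mcpt9. The 3 tested were Mcpt8, Gzmb and Ctsg. Ctsg, a protease of myeloid precursors, differed by 0.47, 0.13 and -0.55, with a mean of 0.018 ± 0.24 (SE; limma adjusted p 0.990). Genes of 1 locus thus had unlike patterns over the pairs: Gzmb was higher in 3 of 3, Ctsg in 2 and Mcpt8 in 1. Without pair 1 the locus had 1 gene higher and 1 lower, the latter being Mcpt8. Related probe sets of this family may share sequence.

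Ms4a2 lies in the Ms4a family, of which 14 were tested, 0 higher and 3 lower. Ms4a1, which encodes CD20 of B cells, was 4.13-fold lower, Ms4a8a 2.04-fold and Ms4a4b 1.80-fold lower (limma adjusted p 0.0928, 0.452 and 0.411). Ms4a4b was dim, with group means of 3.57 in control and 2.72 in NPMc+, the latter below the lowest mean tested, 3.01. It thus passed the filter through its control values, and the size of its difference is uncertain. Ms4a3, a gene of granulocyte and monocyte progenitors next to Ms4a2, differed by 0.10 ± 0.21 (SE; limma adjusted p 0.928). The count of lower genes was 6 without pair 1, 4 without pair 2 and 1 without pair 3.

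The list of IgE receptor signalling genes had 15 tested, with the receptor's own gamma chain, Fcer1g, among them. At an unadjusted p under 0.05, 2 were higher and 0 lower. The mean difference was above 0 for 14 of the 15, against 54.9% of all genes tested, and the median was 0.32. The list as a whole was not tested. Clnk, an adaptor known from mast cells, was 2.98-fold higher (limma adjusted p 0.246), at 5.90, 6.15 and 6.36 in control and 7.95, 7.70 and 7.49 in NPMc+. Lat, the membrane scaffold of antigen and IgE receptor signalling, was 1.51-fold higher (limma adjusted p 0.471), at 7.01, 7.22 and 7.26 against 7.91, 7.70 and 7.67. Neither gene is specific to mast cells, and Lat is also found in T cells and platelets. The count of higher genes was 1 without pair 1 and 3 without pair 3.

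Of 12 growth factor and cytokine receptors tested, 3 were higher and 1 lower. Kit, the stem cell factor receptor of stem cells and mast cells, was 1.35-fold higher (limma adjusted p 0.557), at 8.98, 8.99 and 8.87 in control and 9.34, 9.33 and 9.45 in NPMc+. Il4ra was 1.77-fold higher and Tgfbr2 1.58-fold (limma adjusted p 0.457 and 0.471), and Il9r, the receptor of a mast cell growth factor, was 1.53-fold lower (limma adjusted p 0.513). Without pair 2 the count of higher genes was 0, and without pair 1 the count of higher genes was 1. Without pair 3 the counts were 2 higher and 0 lower. Il5ra, the receptor chain that defines eosinophil progenitors, was below the filter, with group means of 2.97 and 2.87.

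Among 18 regulators of these lineages, 2 were higher and 1 lower. Gata2, which directs mast cell and basophil fates and also maintains stem cells, was 2.05-fold higher (1.04 ± 0.27 log2 units, SE; limma adjusted p 0.410). Its levels were 6.45, 5.80 and 6.04 in control and 6.78, 7.43 and 7.19 in NPMc+, without overlap. The Gata2 differences were 0.34, 1.63 and 1.15 in pairs 1, 2 and 3, and a relation to the members' values was not tested. Stat5a, which acts below the receptors of IL-3 and IL-5, was 1.62-fold higher (limma adjusted p 0.446). Irf8, a factor of monocytes that is also needed by basophil and mast cell progenitors, was 1.74-fold lower (limma adjusted p 0.514). Gata1, required for eosinophils, differed by -1.33, 0.34 and -0.47, with a mean of -0.49 ± 0.32 (SE; limma adjusted p 0.720). Without pair 1 the counts of this list were 4 higher and 0 lower.

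Enzymes of lipid mediators and cytokines completed the lists. Of 9 enzymes tested, 1 was higher and 1 lower: Tbxas1, thromboxane synthase, was 1.42-fold higher and Alox15, the lipoxygenase of eosinophils and macrophages, 1.74-fold lower (limma adjusted p 0.546 and 0.509). Of 9 cytokine and chemokine genes, 0 were higher and Il6 was lower, 2.42-fold (limma adjusted p 0.532), with differences of 0.18, -1.26 and -2.75. Il4, Il5 and Il13, cytokines of basophils and mast cells, had means of -0.29, -0.43 and 0.23, none with an unadjusted p under 0.05. These genes were dim, with means over the 6 arrays of 3.15, 3.22 and 3.48, near the lowest mean tested, 3.01. The NPMc+ means of Il4 and Il5 were 3.0 and 3.01, so the size of their differences is uncertain. Leaving out pair 1 left 0 enzymes higher and 1 lower, and 2 cytokines lower. Leaving out pair 2 left 0 genes past it in either of these lists, and leaving out pair 3 left 1 enzyme, which was higher, and 0 cytokines.

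**Figure D4:**
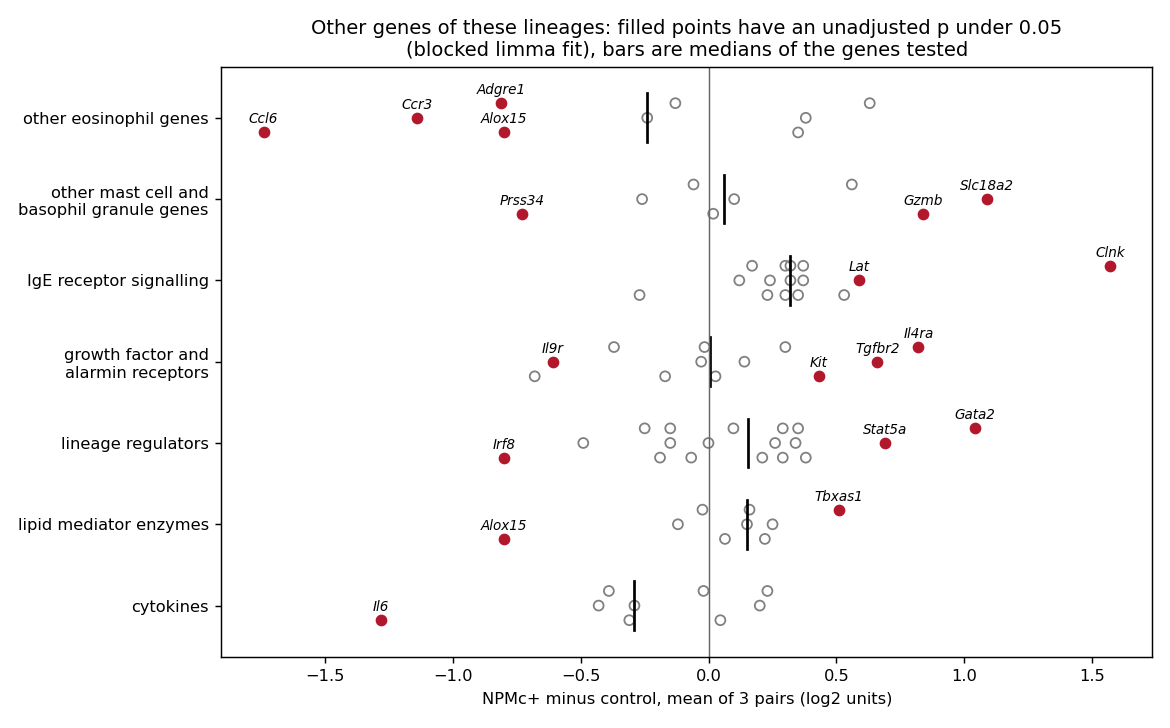
Mean difference between NPMc+ and control over 3 pairs (x axis, log2 units) for the genes tested in each list (y axis), with filled, named points at an unadjusted p under 0.05 in the blocked limma fit and bars at the medians. The filled points of other eosinophil genes and of cytokines lie below 0, those of IgE receptor signalling lie above 0, and the other plotted lists have filled points on both sides. Alox15 is in 2 lists, and the Ms4a family and the protease locus are not plotted.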

How the data were processed

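Per the submitters' processing notes, RMA was used, which corrects background, normalizes arrays and summarises probe sets. The deposited values are log2 expression of 41345 probe sets on 6 arrays, with array medians of 3.90 to 3.99. A step that ties same-numbered arrays is visible in the deposited log2 values (under 5 other pairings at most 0.343% of probe sets were tied) and is not described in the sources used here. Of the probe sets, 23521 had 1 gene symbol in the platform annotation. A gene was represented by its brightest probe set, and genome positions of probe sets are not given. Differences were tested with limma 3.58.1 in R 4.3.3 (lmFit, eBayes, two-sided, replicate number as a block, 2 residual and 4.54 prior degrees of freedom), with Benjamini-Hochberg adjustment over the 16635 genes tested. The number of pools, 3 pairs, limits the precision, and the exact sign-flip test over 3 pairs cannot go below 0.25.

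The members and the 16 other lists were chosen with earlier results of these data known. All members are named. From each list of these lineages and from the Ms4a family, genes at an unadjusted p under 0.05 are named, at most 3 in each direction. Alternatives were no block, quantile normalization, other filters, an intensity trend, the mean over probe sets and leaving out each pair. Of B cell, erythroid, megakaryocyte and T and NK cell markers, 7, 6, 7 and 7 were tested. At an unadjusted p under 0.05, 0, 0, 6 and 1 (0 without pair 1 or 2) were higher and 5, 5, 0 and 3 lower. Over all genes tested the shares were 5.95% higher and 3.02% lower. Without 1 pair the megakaryocyte count was 3 to 4. LT-HSC markers had 5 of 10 higher (3 without pair 2), primary granule genes 0 of 6 (1 without pair 3), and neutrophil markers 8 of 11 lower, or 1, 2 and 11 of 11 without pairs 1, 2 and 3. Among genes of the lineage lists, Ear1, Ear2, Lyn, Il1rl1, Ptgs1, Areg and Gzme were not analysed here. Plots were made in Python 3.11.15 (matplotlib 3.10.9).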

Additional observations from a re-analysis of the deposited data

How the results depend on the processing

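The replicate number is part of the test reported. With no replicate block, 4138 genes had an unadjusted p under 0.05 (24.9%) in place of 1492, because the fit counts tied arrays as independent, and still 0 of 9 members did. The count of members was 1, Epx, with an intensity trend and above the 50th percentile, and 1 to 4 when a pair was left out. The members' median of 0.18 then ranged from -0.033 to 0.64, and the value under 0 came without pair 2.

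Single members turned sign only when a pair was left out or after quantile normalization. These are the only settings that can change a member's difference. When a pair was left out, Prg2 ranged from -0.067 to 0.64, Mcpt8 from -0.95 to 0.15, Ms4a2 from -0.41 to 0.34 and Tpsb2 from -0.067 to 0.09. Epx (0.44 to 2.08), Prg3 (0.094 to 1.77), Cpa3 (0.32 to 1.75) and Fcer1a (0.24 to 1.38) kept their sign but moved by over 1.5 times. Tpsb2 was 0.069 after quantile normalization, which is under its SE. Of 80 member values under alternatives, 66 kept direction and side of the threshold, 8 crossed it in the same direction and 6 turned. Many of the 80 could not turn. Without the block, with other filters, with the trend or with the mean over probe sets (1 per member), the difference stays the same by construction. Probe signal limits Cma1 and Tpsb2, which lie at the dim end of the array.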
